A study of Mus musculus with 4 samples.

Results

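The 10 genes described here are grouped under the midpiece and the outer dense fibres of the mouse sperm tail: Odf1, Odf2, Odf3 (also called Cimap1a), Smcp, Spata19, Spem1, Cabs1, Oaz3, Cby2 and the transcription factor gene Spz1. Their members were taken by gene symbol from the authors' table of transcripts called different between genotypes, which gave 33 transcripts of these 10 genes out of 11304 transcripts of 7453 genes. Testis RNA was sequenced from Ppp2ca-cKO mice, whose genotype is given as Ppp2ca-/-, and from wild-type (WT) mice, with 2 libraries per genotype. All mice were C57BL/6 at postnatal day 56, and RNA came from the left testis and went into TruSeq libraries. Ppp2ca encodes a catalytic subunit of the phosphatase PP2A, and cKO is the short name that the labels give the mutant. The labels used here name neither what drives the deletion nor the litters the replicates came from. The p-values below therefore measure the spread between these libraries only, which may be technical in part.

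The outer dense fibres are cytoskeletal rods that run along the axoneme through the midpiece and the principal piece of the sperm tail. Around them in the midpiece, mitochondria line up end to end in a helical sheath, and a ring called the annulus closes the midpiece at its lower end. A coupling apparatus in the neck joins the tail to the head. The outer dense fibres and the mitochondrial sheath are assembled late, in elongating spermatids. The messenger RNAs of their proteins are largely made earlier in round spermatids and stored.

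The values come from library totals of 18684082 and 19834481 reads in the cKO and 17612292 and 19784105 reads in the WT. Of these reads, 24.4% and 25.5% in the cKO libraries and 43.3% and 44.5% in the WT libraries fell on transcripts of the table. Normalized counts are the authors' estimated reads divided by their size factors (1.24 and 1.25 in the cKO, 0.818 and 0.854 in the WT). FPKM values instead divide by transcript length and library total, so that they can be compared between genes. Changes are log2 fold changes of cKO over WT. The standard error (SE) given with a change is its size divided by the square root of the F statistic of edgeR's quasi-likelihood test. It is therefore derived from that test and not estimated apart from it. Adjusted p-values are from the same test with Benjamini-Hochberg adjustment over the 64840 transcripts the authors tested. No listed transcript belongs to Ppp2ca itself (0 of 11304), and the genotypes are therefore given by label alone, with the targeted gene not analysed here.

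Summed over the listed transcripts of a gene, all 10 genes were lower in cKO testes. The level left ranged between 3.05% of WT for Spem1 and 14.0% for Odf2. Only 10 of 25 annotated transcripts were listed for Odf2, 5 of 8 for Oaz3 and 4 of 6 for Spata19. The others did not enter these sums. Of the 33 transcripts, 31 fell at an adjusted p under 0.05 (edgeR), 0 rose and 2 did not pass, with a median log2 fold change of -3.96 (also -3.96 with the 2 transcripts that had 0 reads in both cKO libraries set at their bound). The most abundant listed transcript of each gene, called its lead transcript, fell for 10 of 10 genes, with a median of -4.19 and values between -5.03 and -2.68. Over the whole table, a share of 41.3% of the 10716 transcripts tested were called lower and 10.4% higher, with a median of -1.70. Among the 7119 lead transcripts tested, 39.8% were lower and 11.1% higher, with a median of -1.44. The authors had picked every listed transcript for an adjusted p of at most 0.05 and a change of at least 1 on the log2 scale in this same contrast, so these counts describe the members and are not independent support for their direction. The same holds wherever the genotypes are said below not to overlap. How many of all listed transcripts show no overlap was not counted. In RNA of whole testes, fewer cells of a type and less RNA per cell cannot be told apart.

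The calls depended on the WT libraries and on the scaling. With either WT library left out, 0 of the 33 members and 0 of all transcripts tested passed (edgeR), with a smallest adjusted p of 0.135 without WT replicate 1 and 0.144 without WT replicate 2. At an unadjusted p under 0.05, 32 of 33 members were still counted in each of these fits, and DESeq2 on all 4 libraries called 32. TMM scaling of the listed transcripts moved the median of all transcripts up by 1.64 on the log2 scale, to -0.06, and its calls over the whole table were 1295 lower and 3641 higher, against 4431 lower and 1113 higher with the authors' size factors. Under TMM the members had a median of -2.46, and 21 of 33 were called lower, as many as under RLE (1301 lower and 3650 higher in the whole table). The 10 calls that ended under both were those of Spert-201, Spert-205, Odf3-202, Odf3-203, Odf2-208, Odf2-209, Odf2-212, Odf2-218, Oaz3-203 and Spata19-206, and Odf2-208, Odf2-212 and Oaz3-203 also ended with library totals. Scaling by library totals gave 3238 lower and 2963 higher in the whole table, with 28 members called lower, and equal Sertoli counts gave 7363 lower and 291 higher, with 33 members called lower. Each of the 33 fitted changes was negative under every scaling tried.

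**Figure D1:**
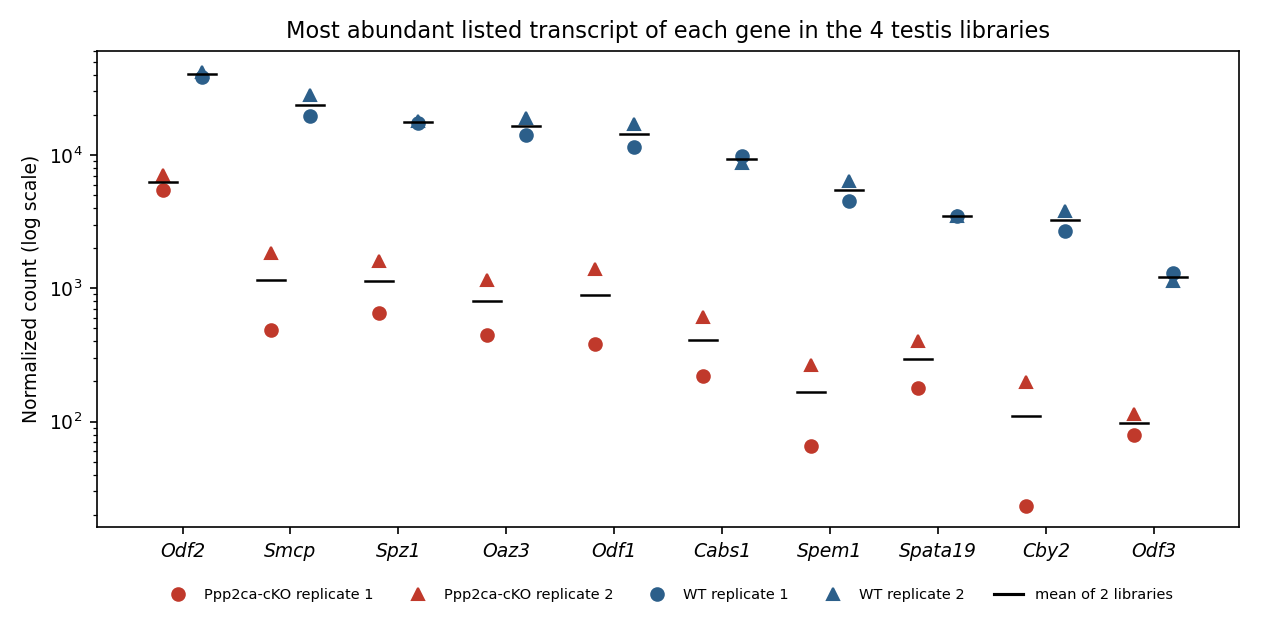
Normalized counts, on a log scale, of the lead transcript of each of the 10 genes in the 2 Ppp2ca-cKO libraries (red) and the 2 WT libraries (blue), with the mean of each genotype as a line. For each gene both cKO points lie below both WT points, and Odf2 keeps the highest level in both genotypes. Listed transcripts were picked by the authors for a change in this contrast, so the gap is not particular to these genes.

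Odf1 encodes the main cysteine-rich protein of the outer dense fibres, a relative of the small heat shock proteins that binds Odf2 and other proteins of the tail. It lies at chr15:38219203-38226735 (GRCm38, plus strand). Its coding sequence is shown because of the cysteine repeat for which the protein is known. The stretch spans codons 187 to 216 of the transcript Odf1-201 in GENCODE vM21, 5′ to 3′, with the cysteine codons TGT and TGC in capitals.
Odf1-201: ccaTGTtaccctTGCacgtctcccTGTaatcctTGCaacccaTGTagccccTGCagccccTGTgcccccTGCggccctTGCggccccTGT
In this stretch 10 of 30 codons encode cysteine, and in the whole reading frame 41 of 248 do (16.5%). Among 5323 lead protein-coding transcripts with a reading frame of at least 100 codons the median share was 1.93%, and 3, Odf1 and Smcp among them, had a share as high as that of Odf1 or higher. Odf1-201, its only annotated transcript, had 384 and 1384 normalized counts in the cKO, against 11414 and 17144 in the WT. The genotypes did not overlap, although the cKO libraries stood further apart from each other than the WT libraries did. The log2 fold change was -4.01 ± 0.68 (SE, adjusted p = 0.0305, edgeR).

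Odf2 encodes the other main fibre protein, a coiled-coil protein that also has a form at the centrosome, named cenexin, where it belongs to the appendages of the mother centriole. It lies at chr2:29889221-29931746 (plus strand). Its lead transcript Odf2-201 had 5504 and 7048 normalized counts in the cKO, against 38781 and 41626 in the WT. The genotypes did not overlap, and the libraries within each lay close together. With a log2 fold change of -2.68 ± 0.26 (SE, adjusted p = 0.0154, edgeR), Odf2-201 had the smallest change among the 10 lead transcripts.

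Odf3, also called Cimap1a or Shippo1, encodes a tail protein with repeated proline-glycine-proline motifs. It lies at chr7:140847805-140851018 (plus strand). Odf3-201 had 80.0 and 114 normalized counts in the cKO, against 1309 and 1136 in the WT. Again the genotypes did not overlap. It fell with a log2 fold change of -3.65 ± 0.32 (SE, adjusted p = 0.0154, edgeR). The other listed transcripts, Odf3-202 and the intron-retaining Odf3-203, fell too, with log2 fold changes of -3.53 and -3.42. Both calls ended under TMM (adjusted p = 0.170 and 0.189, edgeR) and RLE (0.184 and 0.188).

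Of the mitochondrial sheath genes, Smcp encodes the cysteine-rich capsule protein of sperm mitochondria, which in mice is needed for full motility. It lies at chr3:92583867-92588997 (minus strand). Codons 60 to 89 of Smcp-201 are shown for comparison with Odf1, with cysteine codons in capitals.
Smcp-201: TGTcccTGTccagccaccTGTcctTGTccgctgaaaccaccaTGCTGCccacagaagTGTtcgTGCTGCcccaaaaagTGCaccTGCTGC
Here 12 of 30 codons encode cysteine, and 32 of 143 in the whole frame (22.4%), a share that no other of the 5323 reading frames reached. The other 7 genes for which a reading frame was compared had between 0.512% and 2.65%. Smcp-201 had 486 and 1826 normalized counts in the cKO, against 19559 and 28228 in the WT. Both cKO libraries lay far below both WT libraries. Its log2 fold change was -4.37 ± 0.70 (SE, adjusted p = 0.0277, edgeR). The minor transcript Smcp-202 had 0 reads in both cKO libraries, against 48.9 and 41.0 normalized counts in the WT, which is at least 37.3-fold lower when 3 counts over the cKO group are taken as the floor.

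Spata19, also called spergen-1, encodes a protein of the mitochondrial outer membrane in the midpiece that is thought to help mitochondria adhere to each other. It lies at chr9:27396800-27401785 (plus strand). Spata19-201 had 180 and 405 normalized counts in the cKO, against 3470 and 3469 in the WT. The WT libraries were nearly equal, and the cKO libraries lay far below them. The log2 fold change was -3.57 ± 0.45 (SE, adjusted p = 0.0191, edgeR). The 3 other listed transcripts fell too, with log2 fold changes of -3.69 for Spata19-204, -6.26 for Spata19-202 and -3.41 for Spata19-206. Spata19-202 had 0 and 3.20 normalized counts in the cKO, against 175 and 89.0 in the WT.

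Spem1 encodes a spermatid protein needed in mice to strip the residual cytoplasm from the neck and midpiece, and sperm without it have bent heads. It lies at chr11:69820876-69822180 (minus strand). Spem1-201 had 65.4 and 268 normalized counts in the cKO, against 4528 and 6396 in the WT. The genotypes did not overlap. The log2 fold change of -5.03 ± 0.75 (SE, adjusted p = 0.0243, edgeR) was the largest fall among the lead transcripts.

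Oaz3 encodes the antizyme of the testis, which in its family binds ornithine decarboxylase, the first enzyme of polyamine synthesis. Mice without it make sperm whose heads and tails come apart. It lies at chr3:94432414-94443915 (minus strand). Antizyme proteins are made by a programmed ribosomal frameshift at a stop codon inside the reading frame, and the sequence at that place is shown because the listed transcripts are annotated differently there. In the intron-retaining Oaz3-202 the frameshift site TCCTGA stands in capitals, while the annotated coding transcripts Oaz3-204 and Oaz3-201 leave out 1 base at this place, which joins the frames on paper.
Oaz3-202: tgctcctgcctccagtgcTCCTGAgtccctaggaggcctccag
Oaz3-204: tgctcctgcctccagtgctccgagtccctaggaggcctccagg
The lead transcript Oaz3-204 had 446 and 1157 normalized counts in the cKO, against 14032 and 18851 in the WT. Its genotypes did not overlap, and its log2 fold change was -4.36 ± 0.54 (SE, adjusted p = 0.0191, edgeR). Oaz3-202 had 39.6 and 96.0 normalized counts in the cKO, against 2191 and 1377 in the WT, a log2 fold change of -4.71 (adjusted p = 0.0182, edgeR). Both annotated transcripts, Oaz3-204 and Oaz3-202, were therefore lower in the cKO. As the base is left out on paper, their counts do not tell apart forms of the RNA at the frameshift site. Oaz3-203 fell by 4.14, and Oaz3-201 had 0 reads in both cKO libraries, against 37.9 and 31.6 normalized counts in the WT, at least 28.8-fold lower by the same floor. Oaz3-208, with 0 and 4.0 normalized counts in the cKO and 80.7 and 32.8 in the WT, did not pass (log2 fold change -4.74 ± 1.11, adjusted p = 0.0628, edgeR).

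Cabs1 encodes a calcium-binding protein of elongating spermatids and the sperm tail, whose loss in mice weakens the junction between midpiece and principal piece. It lies at chr5:87979439-87981544 (plus strand). Cabs1-201 had 218 and 606 normalized counts in the cKO, against 9854 and 8655 in the WT. The genotypes did not overlap. Cabs1-201 fell with a log2 fold change of -4.49 ± 0.56 (SE, adjusted p = 0.0190, edgeR).

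Cby2, a member of the Chibby family of coiled-coil proteins, is called Spert in GENCODE vM21 and lies at chr14:75582877-75593116 (minus strand). Its lead transcript Spert-201 had 23.4 and 198 normalized counts in the cKO, against 2669 and 3826 in the WT. The genotypes did not overlap, but the cKO libraries differed by 8.43-fold. The log2 fold change was -4.88 ± 1.00 (SE, adjusted p = 0.0451, edgeR), which was -4.04 without cKO replicate 1 and -7.11 without cKO replicate 2. This call ended under TMM (log2 fold change -3.39, adjusted p = 0.0752), under RLE (-3.38, adjusted p = 0.0667) and with a filter of 1 CPM (-4.88, adjusted p = 0.0515, all edgeR). The 4 other listed transcripts fell, with log2 fold changes of -5.45 for Spert-202, -4.91 for Spert-203, -3.75 for Spert-204 and -3.93 for Spert-205.

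Spz1 encodes a transcription factor of the basic helix-loop-helix leucine zipper kind found in the testis. Whether Spz1 acts on the other genes was not tested. It lies at chr13:92574636-92576172 (minus strand). Spz1-201 had 653 and 1612 normalized counts in the cKO, against 17306 and 17853 in the WT. The genotypes did not overlap. Spz1-201 fell with a log2 fold change of -3.96 ± 0.49 (SE, adjusted p = 0.0191, edgeR).

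**Figure D2:**
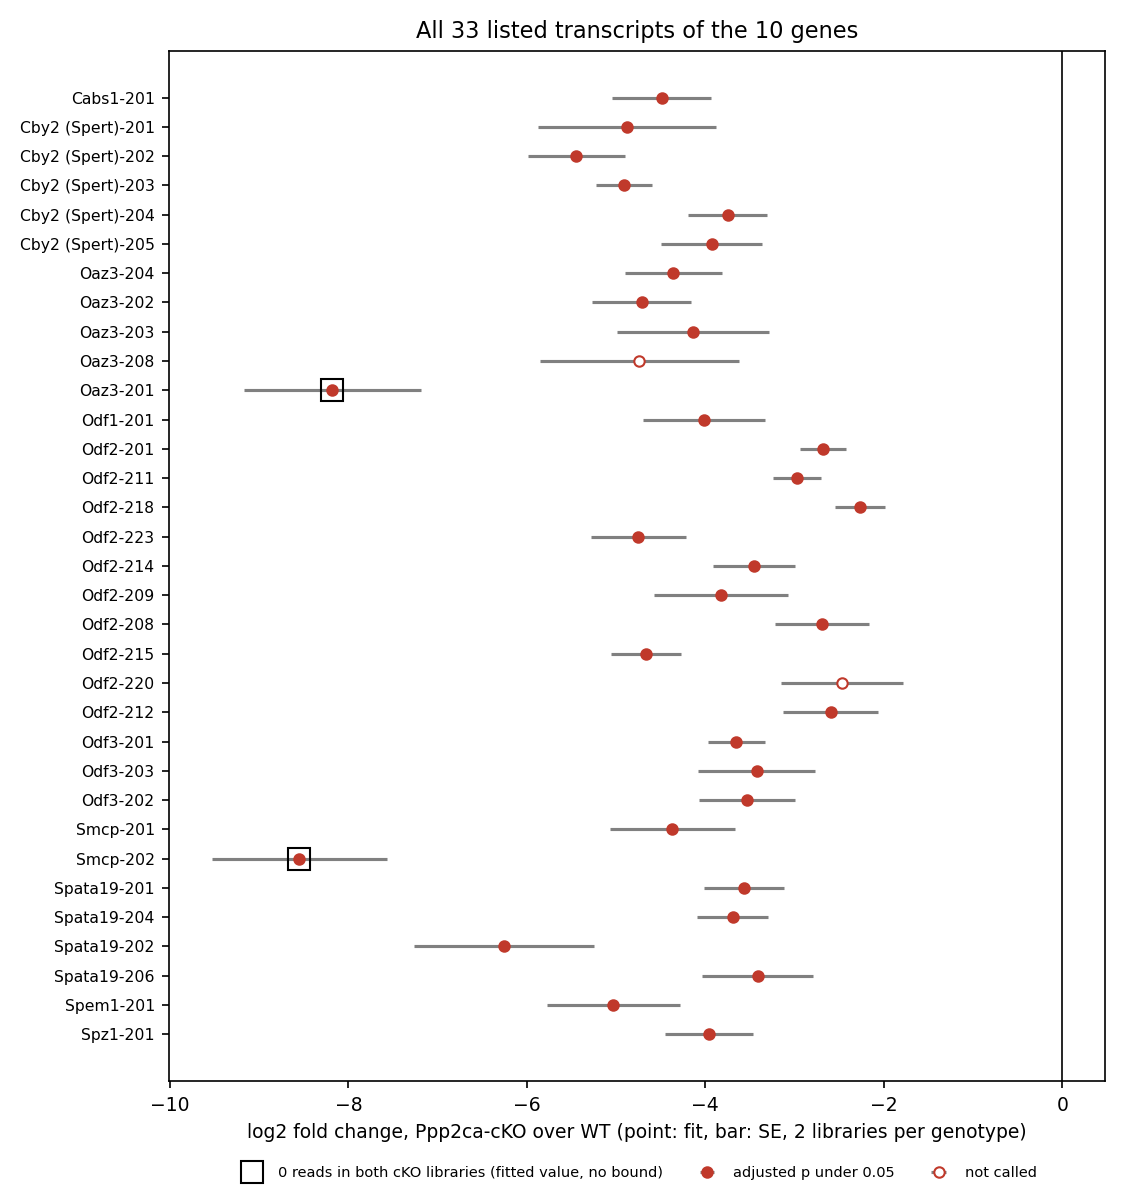
Log2 fold change of cKO over WT with its standard error for all 33 listed transcripts, grouped by gene, with filled points for an adjusted p under 0.05 and open points for the 2 that did not pass. All points lie left of 0. Squares mark Oaz3-201 and Smcp-202, which had 0 reads in both cKO libraries and whose fitted values are no bound.

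On the FPKM scale, the order of the 10 genes by their means was the same in both genotypes. Summed over listed transcripts, Odf2 was the highest of the 10 in both genotypes, at 500 ± 113 FPKM in the cKO and 2669 ± 74.8 FPKM in the WT (SD, n = 2 each). Smcp followed with 118 ± 96.1 FPKM in the cKO and 1675 ± 387 FPKM in the WT. Oaz3 had 77.1 ± 48.4 FPKM in the cKO and 1105 ± 157 FPKM in the WT. Then came Odf1, Spz1, Spata19, Cby2, Cabs1 and Spem1 in both genotypes, by their means. Odf3 was the lowest, at 8.28 ± 2.30 FPKM in the cKO and 70.3 ± 4.09 FPKM in the WT. In the cKO, the FPKM ranges of the libraries overlapped between neighbours for Smcp through Spata19 and for Cby2 through Odf3, so that the order there is within the spread. In the WT, the ranges overlapped for Odf1 and Spz1, for Spata19 and Cby2, and for Cabs1 and Spem1. On the FPKM scale the level left in the cKO was 4.42% of WT for Spem1 and 18.7% for Odf2, with the others between.

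Within the cKO, the 2 libraries differed in how much of these transcripts they held. The ratio of replicate 2 over replicate 1 of the lead transcripts was 8.43 for Cby2, 4.09 for Spem1, 3.75 for Smcp and 3.61 for Odf1. It was 2.78 for Cabs1, 2.60 for Oaz3, 2.47 for Spz1 and 2.25 for Spata19. Odf3 at 1.43 and Odf2 at 1.28 were nearest to equal. In the WT the same ratio lay between 0.868 and 1.5. In cKO replicate 2, 27 of the 33 member transcripts were higher, against 6083 of all 10716 transcripts tested. The members' median log2 ratio was 1.16, compared with 0.12 over all transcripts tested (both with a pseudocount of 1). Without cKO replicate 1 the members' median log2 fold change was -3.45 with 33 called lower, and without cKO replicate 2 it was -5.07 with 32 called lower (edgeR).

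**Figure D3:**
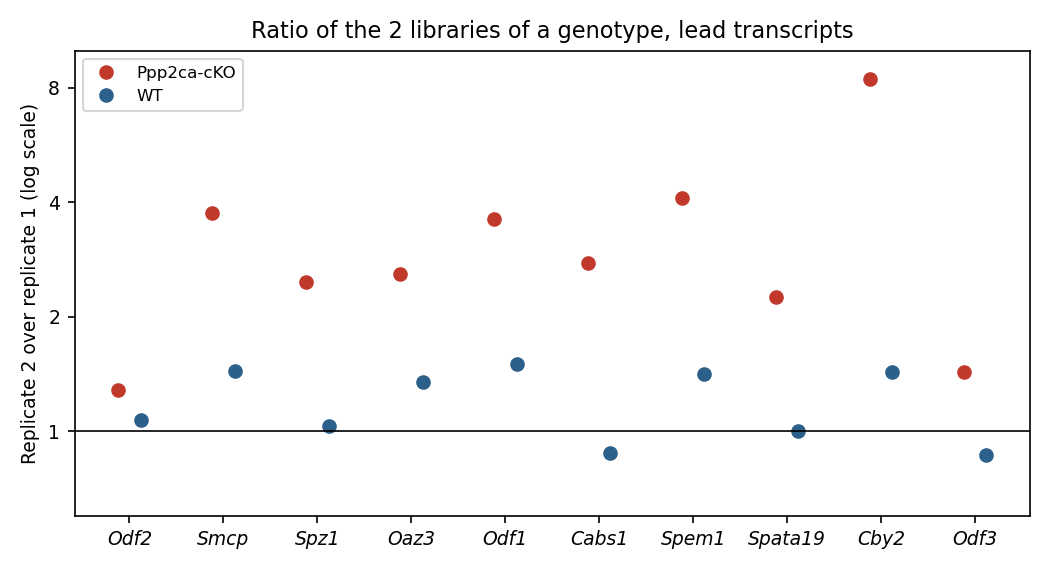
Ratio of replicate 2 over replicate 1, on a log scale, for the lead transcript of each gene in the cKO (red) and the WT (blue). The cKO ratios reach 8.43 for Cby2 and stay near 1 for Odf2, and the WT ratios lie between 0.868 and 1.5.

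Marker genes of testis cell types were read in the same libraries. The 7 elongating spermatid markers, among them the protamine and transition protein genes, summed to 3756 and 14617 normalized counts in the cKO and 192333 and 198010 in the WT. Of them 6 fell (median log2 fold change -4.37), and the cKO replicate with more of the members also had the higher sum. That replicate also had the higher sum for the round spermatid, spermatocyte, Sertoli and Leydig markers. It had the lower sum for the leukocyte and spermatogonia markers. The 7 round spermatid markers summed to 3510 and 5016 in the cKO and 23542 and 27668 in the WT, and 7 of 7 fell, with a median of -3.07. Of 8 spermatocyte markers, 6 were listed and 3 fell, with a median of -1.82. They summed to 26352.3 and 32117.5 in the cKO and 69504.2 and 85131 in the WT. Sertoli cell markers stood higher, at 33901 and 36077 in the cKO and 13439 and 14571 in the WT, with 9 of 11 listed, 4 called higher and a median of 1.33. Leydig cell markers summed to 20214 and 27669 in the cKO and 5841 and 5468 in the WT, with 4 of 7 listed, 4 higher and a median of 1.98. For leukocyte markers the sums were 2482 and 2329 in the cKO and 630 and 712 in the WT, with 5 of 8 listed, 3 higher and a median of 1.81. Of 7 spermatogonia markers 5 were listed, and 0 passed (5 at an unadjusted p under 0.05, edgeR, median 1.64), and of 4 myoid markers 0 were listed. No listed marker was at 0 in any library. The part of these shifts in the fall of the tail genes was not tested.

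Odf2 had the most listed transcripts of the 10 genes. GENCODE vM21 holds 25 Odf2 transcripts, of which 10 were listed, and 9 of these fell. Odf2-211, the next most abundant, had 1982 and 2614 normalized counts in the cKO and 19074 and 16962 in the WT, a log2 fold change of -2.97 (adjusted p = 0.0154, edgeR). Like Odf2-201 it ends at the shorter of the main 3′ ends, as do 4 listed transcripts in all, while the 6 annotated transcripts that reach the longer end were not analysed here. Odf2-220 had 13.7 and 26.4 normalized counts in the cKO and 59.9 and 163 in the WT, and did not pass (log2 fold change -2.47 ± 0.68, adjusted p = 0.0972, edgeR). Odf2-212 passed by a small margin (-2.59 ± 0.53, adjusted p = 0.0457, edgeR).

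A test of each transcript against the other listed transcripts of its gene (edgeR diffSpliceDGE, chosen after the data were seen) called 16.3% of 5761 transcripts and 33.5% of 2168 genes in the whole table. Among the 6 member genes with more than 1 listed transcript it called 1, Odf2 (gene-level adjusted p = 0.0429), while the other 5 had adjusted p between 0.150 and 0.966. In Odf2, the share of listed Odf2 reads held by Odf2-223, a processed transcript that starts 14354 bases into the gene, was 0.976% and 1.81% in the cKO and 6.29% and 4.68% in the WT. Odf2-223 lay 1.33 below the other listed Odf2 transcripts on the log2 scale (adjusted p = 0.0143, edgeR diffSpliceDGE). Annotated Odf2 transcripts that were not listed did not enter this test. The other was Odf2-215, a processed transcript of 3 exons, at 0.225% and 0.277% in the cKO and 0.937% and 0.889% in the WT (adjusted p = 0.0496, edgeR diffSpliceDGE). The fibre-coding Odf2-201 held 58.9% and 56.8% in the cKO and 49.3% and 54.5% in the WT, and its own test did not pass (adjusted p = 1.00, edgeR diffSpliceDGE). These transcripts share exons, so their counts rest on how the authors' counting divided the reads between them.

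**Figure D4:**
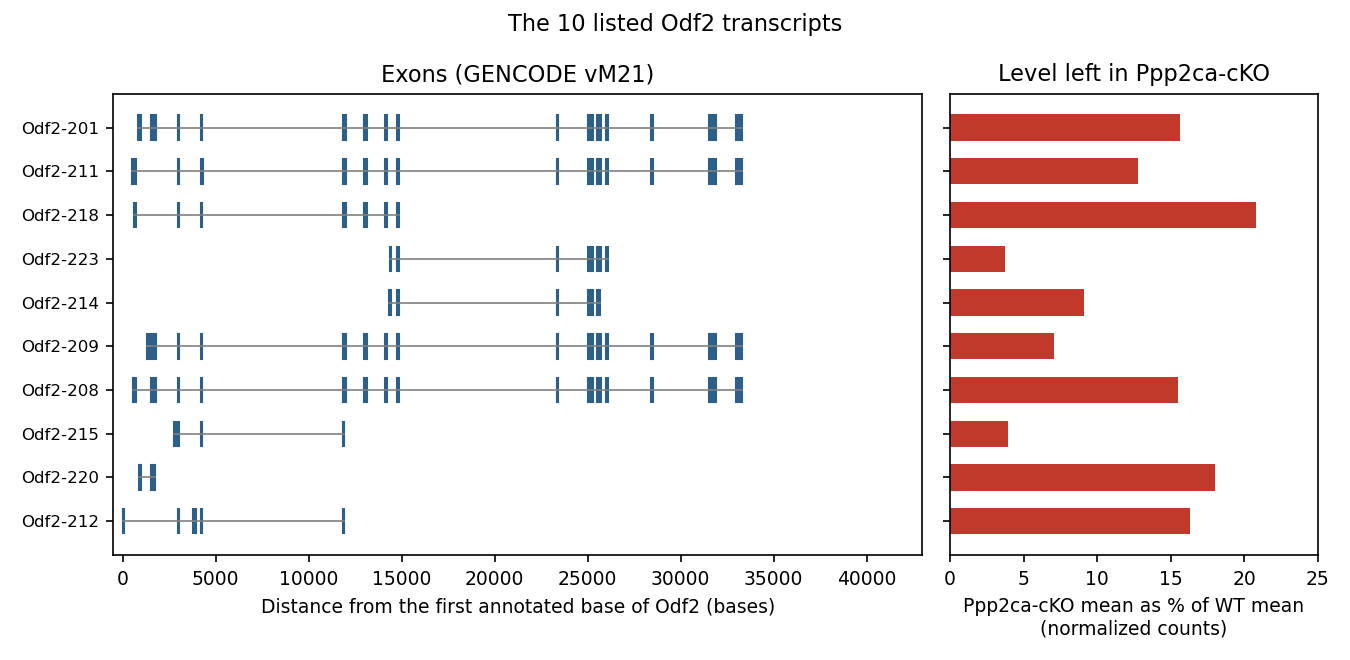
Exons of the 10 listed Odf2 transcripts by distance in bases from the first annotated base of the gene (left) and the cKO mean as a percent of the WT mean of normalized counts (right). Odf2-223 and Odf2-215 keep the lowest shares of WT, at 3.71% and 3.91%, and Odf2-218 the highest, at 20.8%.

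Cby2 and Spata19 each have listed transcripts with an upstream and a downstream start, and both starts were low in the cKO. The 3 Cby2 transcripts of the upstream start kept 4.19% of the WT level and the 2 of the downstream start 3.37%. For Spata19 the upstream start kept 8.17% and the downstream start 7.81%. The upstream start held 62.2% and 49.9% of the listed Cby2 reads in the cKO libraries and 54.7% and 40.9% in the WT libraries, so the genotypes overlapped.

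Promoter windows from RefSeq (GRCm38.p6, 250 bases before to 50 after a start site) matched 8 of the 10 genes in 13 windows, with no entry for Odf1 and Oaz3. They were searched on both strands for TGACGTCA, the cyclic AMP response element that the spermatid factor CREM binds, and for the looser TGANGTNA, which also matches TGACGTCA. The full element was in 0 of the 13 windows and in 1.80% of all 32544 promoter windows. The looser form was in 5 windows of 4 genes, against 16.2% of all windows. The windows of Cby2, Odf2, Odf3 and Spem1 hold no such match. Members with and without it were all listed for a change, so whether the motif bears on the fall was not tested. Of the 5 windows with the looser form, those of Cabs1, Smcp and Spz1 and the upstream window of Spata19 are shown. They are written 5′ to 3′ on the strand of the gene. The match stands in capitals.
Cabs1 chr5:87979201-87979500, plus strand: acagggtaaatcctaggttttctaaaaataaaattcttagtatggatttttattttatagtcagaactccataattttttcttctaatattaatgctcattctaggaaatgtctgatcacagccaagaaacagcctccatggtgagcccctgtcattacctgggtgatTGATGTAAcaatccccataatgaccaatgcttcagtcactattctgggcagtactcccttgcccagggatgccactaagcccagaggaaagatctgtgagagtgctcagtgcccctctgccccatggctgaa
Smcp chr3:92589024-92589323, minus strand: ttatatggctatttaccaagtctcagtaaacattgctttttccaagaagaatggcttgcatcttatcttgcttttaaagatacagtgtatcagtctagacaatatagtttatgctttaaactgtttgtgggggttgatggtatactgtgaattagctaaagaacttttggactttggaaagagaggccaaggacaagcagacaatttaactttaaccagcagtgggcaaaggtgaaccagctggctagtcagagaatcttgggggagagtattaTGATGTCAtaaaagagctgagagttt
Spz1 chr13:92576183-92576482, minus strand: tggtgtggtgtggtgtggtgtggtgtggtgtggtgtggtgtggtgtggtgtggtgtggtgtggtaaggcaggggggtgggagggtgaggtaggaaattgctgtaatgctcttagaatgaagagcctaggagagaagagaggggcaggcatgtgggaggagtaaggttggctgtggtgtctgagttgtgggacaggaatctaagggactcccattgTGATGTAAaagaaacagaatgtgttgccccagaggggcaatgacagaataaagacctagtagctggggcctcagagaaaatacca
Spata19 chr9:27396557-27396856, plus strand: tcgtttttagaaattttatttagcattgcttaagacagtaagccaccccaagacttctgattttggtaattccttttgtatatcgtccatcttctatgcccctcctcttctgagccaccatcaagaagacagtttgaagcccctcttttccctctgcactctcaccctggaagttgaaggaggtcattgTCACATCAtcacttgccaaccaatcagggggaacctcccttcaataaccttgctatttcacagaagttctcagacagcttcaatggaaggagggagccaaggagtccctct
The match begins at position -82 from the RefSeq start site in Cabs1, 24 in Smcp, -35 in Spz1 and -61 in Spata19. In Spata19 it lies on the other strand. RefSeq starts differ from those of the counted GENCODE transcripts, at 92589073 against 92588997 for Smcp and 92576232 against 92576172 for Spz1. The Smcp match thus lies before the start of Smcp-201. The shorter TGACG, contained in the full element, was in 2 overlapping windows of Odf2 (20.9% of all windows). GTTGCC, a core of the X-box that RFX factors bind, was in 3 windows, those of Odf3, Spem1 and Spz1 (12.4%), and CCAAT was in 8 windows of 5 genes (37.4%). These matches describe the letters of the windows, and binding was not measured.

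Beside the 10 genes, lists of related sperm genes were read the same way, with Odf2 also among the fibre genes. Of 66 genes in 6 lists, 48 were listed and tested, of which 31 fell and 1 rose (edgeR, median log2 fold change -2.05). Under TMM and RLE, 13 fell and 4 rose. The other 18 genes were not listed: 1 fibre relative, 6 of the mitochondrial sheath, 2 of the annulus, 2 of head-tail coupling, 6 of the polyamine list and 1 of spermatid transcription. Counts per list are out of the genes tested, which the authors had picked for a change in this contrast. Among all lead transcripts tested, 39.8% were lower and 11.1% higher, with a median of -1.44. Among relatives of the outer dense fibre genes and partners of Odf1, 5 of 9 tested fell, with a median of -2.68. Spag4, an Odf1-binding protein of the nuclear envelope and tail, had 159 and 162 normalized counts in the cKO and 1928 and 1757 in the WT (log2 fold change -3.52 ± 0.26, adjusted p = 0.0154, edgeR). Rnf19a, the ubiquitin ligase dorfin that binds Odf1, had 4185 and 4820 in the cKO and 11524 and 12954 in the WT (-1.44 ± 0.23, adjusted p = 0.0272, edgeR), a direction that turned under TMM (0.077) and RLE (0.11).

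In the mitochondrial sheath list, 7 of 9 tested fell, with a median of -1.96. Spata18, a regulator of mitochondrial quality, had 298 and 921 normalized counts in the cKO and 8051 and 12100 in the WT (-4.05 ± 0.62, adjusted p = 0.0257, edgeR). The glycerol kinase-like genes Gykl1 and Gk2, which in mice are needed for the order of the sheath, fell (-1.96 and -1.33) with the authors' size factors. The call for Gykl1 ended under TMM (-0.44, adjusted p = 0.558, edgeR) and RLE (-0.40, adjusted p = 0.726), and Gk2 turned under TMM (0.20) and RLE (0.24) and did not pass with library totals (-0.80, adjusted p = 0.187). In the annulus list 3 of 5 fell, with a median of -2.44, namely Septin4 (-3.29) and Septin12 (-1.65), which build the ring, and the chaperone gene Dnajb13 (-2.44). In the list of head-tail coupling, 10 of 12 fell, with a median of -2.61. Pmfbp1, a protein of the coupling apparatus, had 505 and 1180 normalized counts in the cKO and 15837 and 16266 in the WT (-4.25 ± 0.48, adjusted p = 0.0173, edgeR), and Spata20 (-3.42) and Spata6 (-2.10) fell too.

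The polyamine list, to which Oaz3 is related, went both ways: of 5 tested, 1 fell and 1 rose, with a median of 1.08 that was -0.25 with equal Sertoli counts. Azin2, the antizyme inhibitor of the testis, had 87.3 and 246 normalized counts in the cKO and 1891 and 3144 in the WT (-3.92 ± 0.60, adjusted p = 0.0254, edgeR). Sat1, which acetylates polyamines, had 92.9 and 64.0 in the cKO and 7.34 and 14.1 in the WT (2.86 ± 0.57, adjusted p = 0.0422, edgeR), a call that ended with equal Sertoli counts (1.53, adjusted p = 0.3004). Of the genes for spermatid transcription and mRNA storage, 5 of 8 fell, with a median of -1.93. Fhl5 (-3.64), a partner of CREM also called ACT, the transcription factor gene Sox30 (-2.65) and the general factor gene Gtf2a1l (-1.81) fell. Of the related genes named, Septin12, Dnajb13, Spata6, Sox30 and Gtf2a1l kept their direction but did not pass under TMM or RLE.

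**Figure D5:**
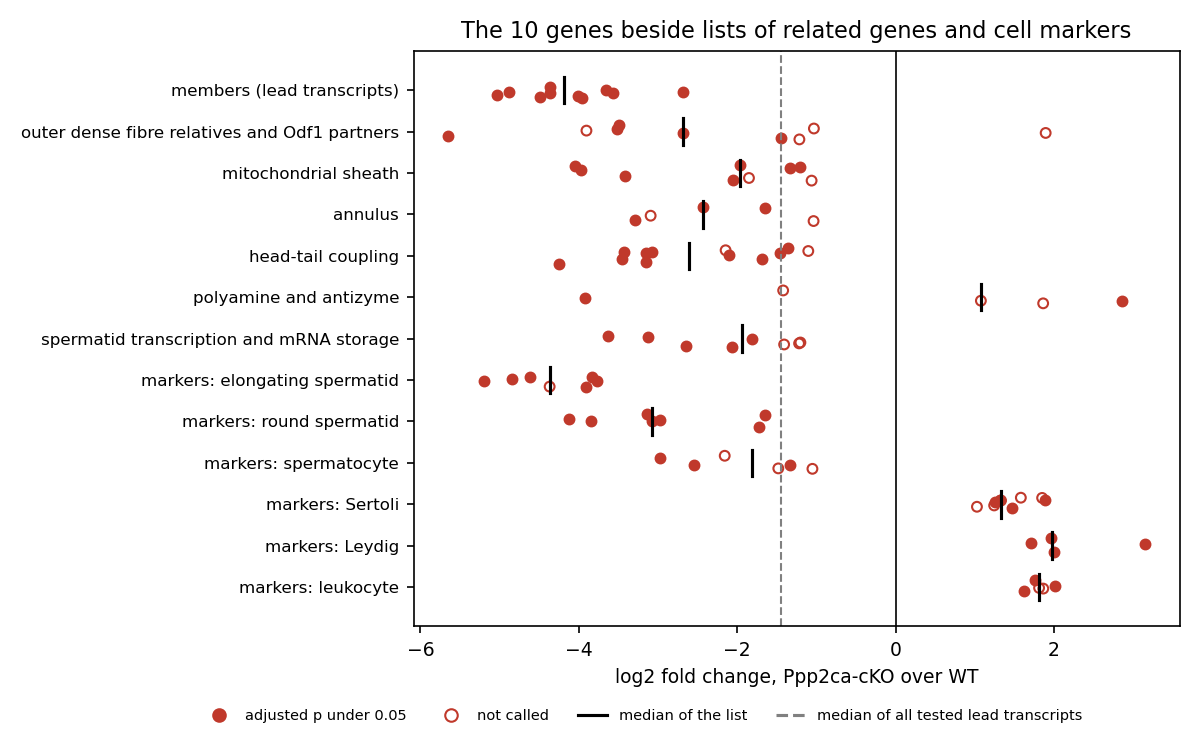
Log2 fold change of cKO over WT of lead transcripts for the 10 genes, the 6 related lists and the cell type markers, with filled points for an adjusted p under 0.05, a black line at each list's median and a dashed line at the median of all lead transcripts tested (-1.44). The members' median of -4.19 lies near that of the elongating spermatid markers (-4.37), and the Sertoli, Leydig and leukocyte markers lie right of 0.

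The profiles most like the mean of the 10 genes were sought over the 4 libraries among 4748 lead transcripts with a mean of at least 100 normalized counts, by the root mean square distance of centred log2 values (pseudocount 1), with predicted genes skipped. The 5 nearest were Spata31d1b at 0.0525, Spata3 at 0.0535, Fam71f2 at 0.0610, Fam71f1 at 0.0660 and Adig at 0.0713. The nearest, Spata31d1b, had 203 and 616 normalized counts in the cKO and 6890 and 7833 in the WT. Of the 10 genes themselves, Oaz3 lay nearest to their mean profile, at 0.127, and Odf2 farthest, at 0.903. With 4 libraries, such a distance describes the pattern of 4 values only.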

How the data were processed

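Per the file headers, the deposited table holds the authors' expected counts (estimated counts of reads per Ensembl transcript, which need not be whole) and FPKM values per library. The authors' mean normalized count over the libraries is a deposited signal. Their log2 fold changes, p-values and scores (standard errors and test statistics) are also deposited. It lists only transcripts the authors called. The 4 deposited single-sample files hold the same FPKM values. The submitters' processing notes name mm9, but gene coordinates equalled GRCm38 for 98.5% of transcripts, so GRCm38 is given. Neither an aligner nor a counting tool is given in the sources used here.

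The authors' size factors were recovered from their mean normalized counts (largest relative misfit 4.9e-10), and library totals from reads, lengths and FPKM. Expected counts were rounded and tested with edgeR 4.0.16 in R 4.3.3 (glmQLFit, glmQLFTest, genotype only) after filterByExpr with a minimum count of 10. Transcripts outside the table entered the Benjamini-Hochberg adjustment with the largest possible p-value. Only transcripts already called entered the estimate of spread, with 2 residual and 3.51 prior degrees of freedom and a common coefficient of variation of 32.5%. Libraries of a genotype were no duplicates (chi-square per degree of freedom 28.7 in the cKO and 32.9 in the WT). Counting floors cover counting error only. The edgeR functions were also run on simulated counts with known changes. Those counts had less spread, mostly unchanged transcripts and a plain Benjamini-Hochberg adjustment. That run therefore does not show how the tests behave on transcripts already called.

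The members, lists and tests were chosen with earlier results of these data known. Named were every listed transcript of the members, up to 3 called lead transcripts with the highest counts per list and direction, and the 5 nearest profiles. Strandedness is not given in the sources used here. No listed transcript of another gene overlaps a member. Alternatives were TMM, RLE, library total and equal Sertoli scaling, no filter or 1 CPM, DESeq2 1.42.0, a replicate block, and each library left out. Sequences are from RefSeq and GENCODE vM21.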

Additional observations from a re-analysis of the deposited data

How the results depend on the processing

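The number of member transcripts called lower was 31 and lay between 21 (TMM and RLE) and 33 (equal Sertoli counts) over the scalings, was 30 under both filters and 32 with DESeq2. Leaving out each library in turn gave 0 to 33 member transcripts called lower, 0 to 42 related genes called lower and 0 to 2 called higher. The counts of 0 came from leaving out either WT library. No member transcript was called higher in any of these fits, and none changed direction. With TMM and with RLE, 13 genes of the related lists were lower and 4 higher, against 31 and 1. Library totals gave 2 higher, and equal Sertoli counts gave 0 higher. Replicate numbers do not pair the samples in the labels, and the correlation of same-numbered deviations was 0.14 with 2 pairs. With a replicate block, 23 member transcripts were lower, and of the related genes 41 were lower and 0 higher, so that the call for Sat1 ended (adjusted p = 0.0839, edgeR). Directions turned for the median of the polyamine list with equal Sertoli counts (-0.25), for Rnf19a with TMM (0.077) and RLE (0.11) and for Gk2 with TMM (0.20) and RLE (0.24). The causes were not tested. With 2 libraries per genotype the precision is limited, most of all for transcripts with few reads such as Odf2-212 (7.27 and 4.80 normalized counts in the cKO, 34.2 and 39.8 in the WT).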
